A study of Mus musculus with 41 samples.

Results

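Drug-metabolising and conjugating enzymes were followed in the mouse kidney after ischemic injury, with and without removal of the opposite kidney. The set comprised the 142 protein-coding genes, of 48795 genes in the deposited table, whose symbols place them in the cytochrome P450 families Cyp1, Cyp2, Cyp3 and Cyp4, the glutathione S-transferases (Gst), the sulfotransferases (Sult) or the UDP-glucuronosyltransferases (Ugt1a, Ugt2a and Ugt2b). Membership was decided by the symbol alone and used no measured value, but the set itself was chosen with earlier results of these data known. The set held 3 Cyp1, 48 Cyp2, 9 Cyp3 and 20 Cyp4 genes, 4 alpha-class, 7 mu-class and 11 other Gst genes, 21 Sult genes, and 9 Ugt1 and 10 Ugt2 genes.

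These enzymes act in sequence. Cytochromes P450 are heme enzymes of the endoplasmic reticulum that insert oxygen into drugs, steroids and fatty acids, using electrons passed on by P450 oxidoreductase. Glutathione S-transferases, sulfotransferases and UDP-glucuronosyltransferases then attach glutathione, sulfate or glucuronic acid, which makes the products soluble enough for export. In the kidney most of this capacity lies in the proximal tubule, the segment most exposed to ischemic damage.

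The first cohort held 4 groups of 6 male mice aged 8 to 10 weeks. In the UIRI+Nx d7 group the left kidney underwent 21 minutes of ischemia at a core temperature of 34 °C (unilateral ischemia-reperfusion injury, UIRI), the uninjured kidney was removed on day 3 (nephrectomy, Nx), and the animals were killed on day 7. The UIRI d7 group had the same injury with a sham operation on day 3, the UIRI d3 group had the injury and was killed on day 3, and the Control group had no ischemia. The second cohort held the groups WT_IRNxd7 (4 libraries), WT_IRd7 (6 libraries) and WT_IRd3 (6 libraries), whose labels give the same treatments, and it had no uninjured group. Strain is not given for either cohort, and the labels of the second give no sex, age, ischemia time, core temperature or nephrectomy day. Its labels do not say that the libraries came from separate animals, so its p-values measure the spread between these libraries. RNA was taken from a cryosection of the organ's pole, with all of its cell types together. In such bulk tissue, fewer cells of one type and less RNA per cell cannot be told apart.

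Values are 3′ end read counts, given here as CPM, counts scaled to the TMM-adjusted size of the library. Depth ran between 5090418 and 33362940 counts over the 40 libraries in groups. Proximal tubule markers summed to at least 5384 CPM in each of these libraries and none of the 18 was at 0, against 30.8 to 322 CPM for 7 hepatocyte markers. A member was tested where it passed the filter on low counts and averaged at least 1 CPM in a group of its cohort, which left 58 members for the first cohort and 55 for the other. Cyp2f2, Cyp2r1 and Ugt2a3 were tested in the first cohort only, 84 members were tested in neither, and 29 of these had no count in any library. Just inside the level threshold lay Ugt2a3 and Cyp2r1, at 1.20 and 1.33 CPM in their highest group, and just outside it Cyp2j7 and Gstp1, at 0.834 and 0.726 CPM. Gsta1 (1.30 CPM) and Cyp4f14 (1.24 CPM) reached the level but failed the count filter. Near-identical copies can share 3′ reads. Of 50-base words in the last 500 transcript bases, 51.0% of Gsta2 also occur in other genes (Gsta1 and gene models beside it), as do 44.3% of Cyp2a4 (mainly Cyp2a5), 37.0% of Cyp4a12a and of Cyp4a12b (each other) and all words of the Ugt1a genes other than Ugt1a7c. In 46 of the 58 tested members the share was under 5%.

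After injury more members fell than rose, and after nephrectomy more rose than fell. A gene was called at an adjusted p under 0.05 in edgeR's quasi-likelihood test, with Benjamini-Hochberg adjustment over all genes tested. Between UIRI d3 and Control, 12 of 58 members rose and 25 fell, where 17.8% of all 15701 genes tested rose and 14.9% fell. Between UIRI d7 and Control, 12 rose and 30 fell (21.5% and 18.1% of all genes). Between UIRI+Nx d7 and Control, 18 rose and 17 fell (17.3% and 14% of all genes). The median log2 fold change of the members was -0.62, -0.77 and -0.25 in these comparisons, where that of all genes was 0.00062, 0.04 and 0.02.

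Between UIRI+Nx d7 and UIRI d7, 14 of 58 members rose and 2 fell, where 3.17% of all genes rose and 3.46% fell. Between WT_IRNxd7 and WT_IRd7, 13 of 55 rose and 4 fell, where 2.58% and 2.66% of 15543 genes did. The medians were 0.31 and 0.21 on the log2 scale, against -0.012 and 0.0046 over all genes. Day 7 and day 3 differed in few members: between UIRI d7 and UIRI d3, Cyp4f18 rose and Sult1b1 fell (1.24% and 1.36% of all genes), and between WT_IRd7 and WT_IRd3, Cyp4f18 rose and Cyp4a31 and Ugt2b38 fell (4.51% and 4.05%), of which the Cyp4f18 and Ugt2b38 calls were lost with the library block as a covariate. Between UIRI+Nx d7 and UIRI d3, 8 members rose and 3 fell (2.06% and 3.06%), and between WT_IRNxd7 and WT_IRd3, 12 rose and 8 fell (2.97% and 3.04%).

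Library ranges gave a view without a model. All libraries of the first-named group lay above all those of the second in 6 members for UIRI d3 over Control, 6 for UIRI d7 over Control and 7 for UIRI+Nx d7 over Control, and below in 17, 19 and 11, where 10.3%, 10.9% and 9.74% of all genes lay above and 8.08%, 9.61% and 7.38% below. With nephrectomy 6 members lay above and 1 below in UIRI+Nx d7 against UIRI d7 (1.56% and 1.45% of all genes), and 12 above and 4 below in WT_IRNxd7 against WT_IRd7 (3.03% and 3.02%). No member was apart between UIRI d7 and UIRI d3 (1% and 1.38% of all genes), and 1 lay above and 1 below between WT_IRd7 and WT_IRd3 (2.86% and 2.6%). The counts were 7 above and 1 below for UIRI+Nx d7 against UIRI d3 (1.21% and 2.24%) and 8 above and 7 below for WT_IRNxd7 against WT_IRd3 (3.04% and 3.74%).

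**Figure D1:**
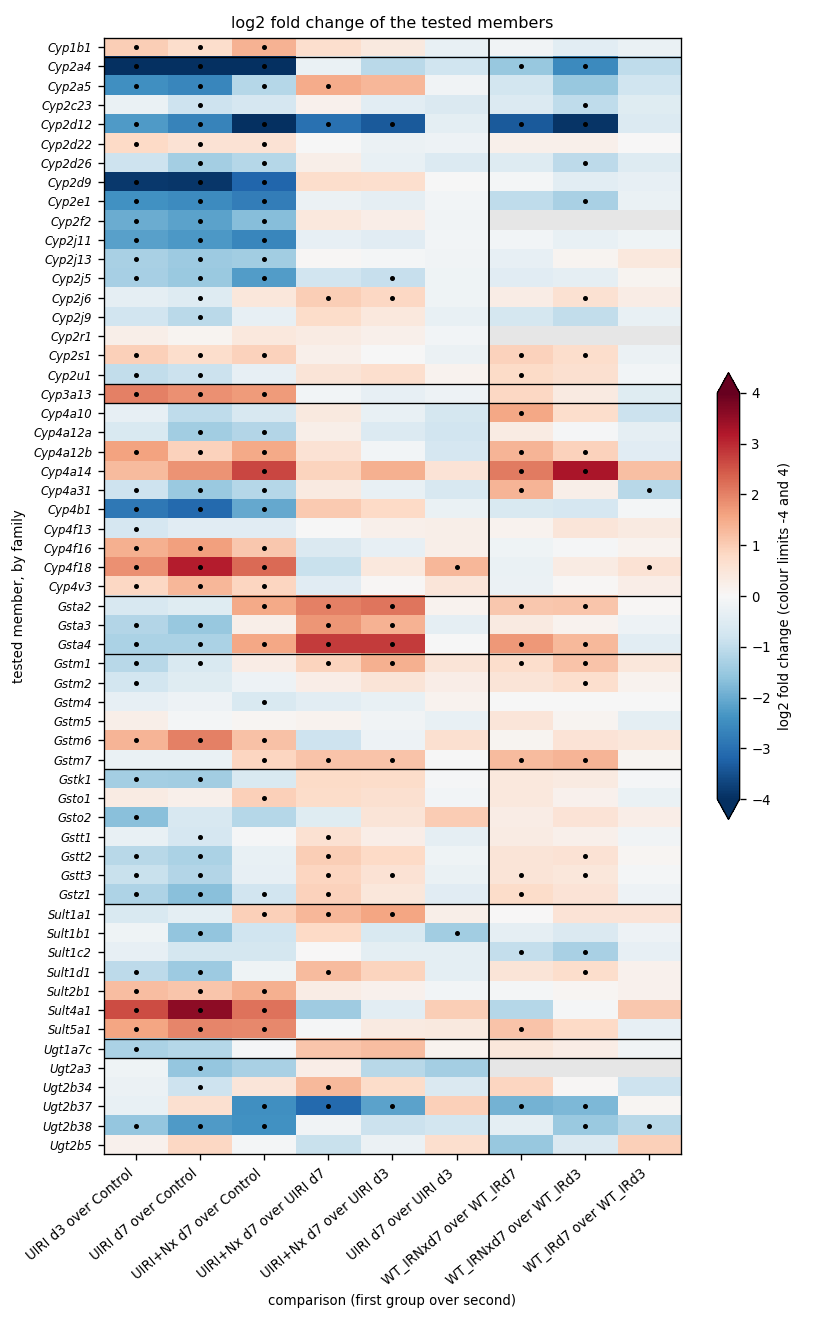
Heat map of log2 fold changes of the 58 tested members (rows, grouped by family) in 9 comparisons (columns), with colours limited at -4 and 4, a dot where the adjusted p was under 0.05, and grey where a member was not tested. Most Gst rows are lower after injury alone and higher with nephrectomy, and Cyp2d12 and Ugt2b37 are the rows that fell with nephrectomy in both cohorts.

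Summed over all 142 members, expression was 4676 ± 894 CPM in UIRI+Nx d7, 3244 ± 443 in UIRI d7 and 3614 ± 789 in UIRI d3, against 8514 ± 849 CPM in Control (SD, n = 6 each). In the second cohort it was 4554 ± 648 CPM in WT_IRNxd7 (SD, n = 4), 3523 ± 507 in WT_IRd7 and 3692 ± 132 in WT_IRd3 (SD, n = 6 each). Every injured library of the first cohort lay below every Control library. In UIRI+Nx d7 the alpha-class Gst sums lay above those of every Control library, and the Cyp2 sums lay below them.

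**Figure D2:**
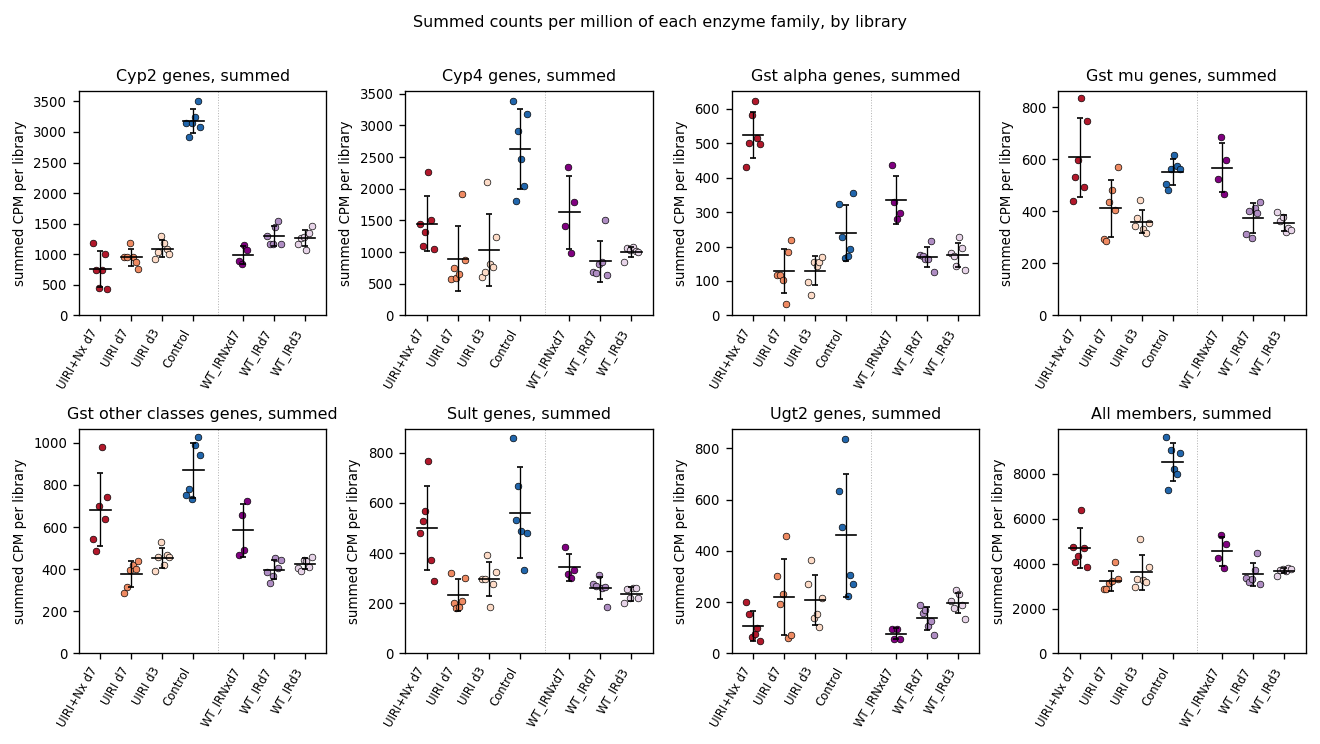
Summed CPM of 7 enzyme families and of all members in each of the 7 groups, with a point for each library, a bar for the mean and whiskers for 1 SD. The alpha-class Gst sums run over 431 to 622 CPM in UIRI+Nx d7, above the 34.0 to 219 CPM of UIRI d7. The Cyp2 sums of all injured groups of the first cohort lie below the 2922 to 3513 CPM of Control.

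Among the oxidising enzymes, the Cyp2 family fell widely after injury. Of 17 Cyp2 members tested, 10 fell and 2 rose between UIRI d3 and Control (14.9% and 17.8% of all genes). Between UIRI d7 and Control 14 fell and 2 rose (18.1% and 21.5%), and between UIRI+Nx d7 and Control 10 fell and 2 rose (14% and 17.3%). The family's median log2 fold change was -1.31, -1.45 and -1.14 in these comparisons. Cyp2a4, a testosterone 15-alpha-hydroxylase, had 2.49, 4.24 and 17.9 CPM in UIRI+Nx d7 (lowest, median and highest library), 3.44, 8.21 and 17.8 in UIRI d7 and 7.64, 18.1 and 28.3 in UIRI d3, against 186, 329.9 and 375 CPM in Control. No injured library reached the lowest Control library. Its log2 fold change over Control was -5.20 ± 0.51 (SE) in UIRI+Nx d7, -4.93 ± 0.50 in UIRI d7 and -4.13 ± 0.48 in UIRI d3 (edgeR, adjusted p = 1.16e-08, 1.41e-08 and 1.63e-07). Its neighbour Cyp2a5, the mouse coumarin hydroxylase, with which it shares 3′ sequence, also fell in all 3 comparisons with Control, with log2 fold changes of -1.13 in UIRI+Nx d7, -2.61 in UIRI d7 and -2.46 in UIRI d3. The Cyp2a5 call for UIRI+Nx d7 was lost without any 1 of 8 libraries (highest adjusted p = 0.088, without UIRI+Nx d7 replicate 4).

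Cyp2d9, a steroid 16-alpha-hydroxylase of male mice, had 6.64, 11.4 and 55.7 CPM in UIRI+Nx d7, 5.89, 12.4 and 16.7 in UIRI d7 and 6.48, 13.1 and 14.9 in UIRI d3, against 101, 145 and 279 CPM in Control. The groups did not overlap with Control, and the log2 fold changes over Control were -3.19 ± 0.42 for UIRI+Nx d7, -3.88 ± 0.44 for UIRI d7 and -3.86 ± 0.44 for UIRI d3 (edgeR, highest adjusted p = 1.53e-06, for UIRI+Nx d7), the first being -3.95 without UIRI+Nx d7 replicate 4. Cyp2e1, which oxidises ethanol and acetaminophen, averaged 49.4 ± 39.7 CPM in UIRI+Nx d7, 58.8 ± 27.3 in UIRI d7 and 63.3 ± 48.6 in UIRI d3, against 337 ± 140.1 CPM in Control (SD, n = 6 each). It fell in all 3, with log2 fold changes of -2.77, -2.52 and -2.41 over Control (edgeR, highest adjusted p = 0.000408, for UIRI d3). Cyp2j5, an arachidonic acid epoxygenase of the kidney, had 156, 277 and 650.3 CPM in UIRI+Nx d7, 408, 580.3 and 821 in UIRI d7 and 516, 622 and 836 in UIRI d3, against 1469, 1587 and 2086 CPM in Control. All injured libraries lay below all Control libraries, and the log2 fold changes over Control were -2.25, -1.49 and -1.32. Cyp2j11 and Cyp2j13, of the same gene cluster (chr4:96027534-96664154, GRCm38), fell too, with log2 fold changes over Control of -2.62 and -1.39 in UIRI+Nx d7 and -2.29 and -1.45 in UIRI d7. Cyp2f2, which oxidises naphthalene in mouse lung, fell in all 3 groups (-1.71, -2.13 and -1.98). Cyp2d26 fell in UIRI+Nx d7 (-1.14, lost without any 1 of 6 libraries, adjusted p at most 0.117) and UIRI d7 (-1.37). Cyp2c23, Cyp2j6 and Cyp2j9 fell in UIRI d7, with log2 fold changes of -0.84, -0.53 and -1.07, and each of these calls was lost without any 1 of 5 to 8 libraries (highest adjusted p = 0.116, 0.0726 and 0.103). Cyp2u1 fell in UIRI d7 (-0.85) and UIRI d3 (-0.99). Cyp2r1, a vitamin D 25-hydroxylase, was called in no comparison.

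Cyp2s1, a P450 found mainly outside the liver, and Cyp2d22 were the Cyp2 members that rose over Control. Cyp2s1 had 12.6, 16.0 and 29.7 CPM in UIRI+Nx d7, 10.6, 17.3 and 23.1 in UIRI d7 and 14.6, 17.96 and 28.9 in UIRI d3, against 7.78, 9.45 and 14.9 CPM in Control, and the injured groups each overlapped with Control. Its log2 fold change was 0.93 ± 0.25, 0.71 ± 0.25 and 0.96 ± 0.25 (edgeR, adjusted p = 0.00441, 0.0218 and 0.00323). The UIRI d7 call was lost without Control replicate 3 or UIRI d7 replicate 4 (highest adjusted p = 0.0601, without UIRI d7 replicate 4). Cyp2d22 rose by 0.57, 0.59 and 0.79 on the log2 scale. Its calls for UIRI+Nx d7 and UIRI d7 were lost without any 1 of 8 and of 5 libraries (highest adjusted p = 0.144 and 0.0786).

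A single Cyp2 gene fell with nephrectomy in both cohorts. Cyp2d12 (ENSMUSG00000096852, chr15:82555072-82560403, plus strand, GRCm38), a member of the Cyp2d cluster, had 0.249, 1.04 and 2.70 CPM in UIRI+Nx d7, against 3.06, 6.17 and 24.1 CPM in UIRI d7. In the second cohort the 4 WT_IRNxd7 libraries had 0.519, 0.998, 0.444 and 1.50 CPM, against 5.02, 8.00 and 13.5 CPM in WT_IRd7. In both cohorts every nephrectomy library lay below every library without nephrectomy. The log2 fold change was -2.97 ± 0.56 in UIRI+Nx d7 over UIRI d7 (edgeR, adjusted p = 0.00153) and -3.37 ± 0.37 in WT_IRNxd7 over WT_IRd7 (adjusted p = 3.11e-05). In Cyp2d12, 19.5% of the 3′ words also occur in Cyp2d9 and other Cyp2d genes, and Cyp2d9 itself had log2 fold changes of 0.69 and -0.08 with nephrectomy and was called in neither cohort. Set against UIRI d3, Cyp2d12 also fell in UIRI+Nx d7, with a log2 fold change of -3.37, and set against WT_IRd3 in WT_IRNxd7, with -3.91.

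The other Cyp2 calls with nephrectomy were made in a single cohort each. In UIRI+Nx d7 over UIRI d7, Cyp2j6 rose by 0.99 ± 0.19 on the log2 scale (edgeR, adjusted p = 0.00166), with 48.4, 57.3 and 68.3 CPM in UIRI+Nx d7 and 18.9, 27.1 and 41.8 CPM in UIRI d7, and the groups did not overlap. Cyp2a5 rose by 1.49 ± 0.43 (adjusted p = 0.0343), with 7.59, 10.5 and 28.2 CPM in UIRI+Nx d7 and 0.344, 4.51 and 7.73 CPM in UIRI d7. The Cyp2a5 groups overlapped, and the call was lost without any 1 of 4 libraries (log2 fold change 1.13 to 1.70 over the leave-one-out fits, highest adjusted p = 0.119 without UIRI+Nx d7 replicate 3, the highest library). In WT_IRNxd7 over WT_IRd7, Cyp2s1 rose by 0.91 ± 0.17 (adjusted p = 0.0037), with 29.0, 41.8, 24.0 and 40.4 CPM in the 4 WT_IRNxd7 libraries, against 15.4, 16.7 and 23.8 CPM in WT_IRd7, with no overlap. There Cyp2u1, a fatty acid hydroxylase, rose (log2 fold change 0.77) and Cyp2a4 fell (-1.52, or -2.12 without WT_IRNxd7 replicate 3), and each call was lost without any 1 of 6 libraries (highest adjusted p = 0.131 and 0.121).

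The Cyp4 family, which hydroxylates fatty acids and eicosanoids at their end, split after injury. Of 10 members tested, 4 rose and 3 fell in each of UIRI d3 and UIRI d7 over Control, and 5 rose and 3 fell in UIRI+Nx d7 over Control. In these comparisons 17.8%, 21.5% and 17.3% of all genes rose, and 14.9%, 18.1% and 14% fell. Cyp4b1, which hydroxylates fatty acids and some furans, had 137, 435 and 844 CPM in UIRI+Nx d7, 69.4, 193 and 353 in UIRI d7 and 110.4, 211 and 509 in UIRI d3, against 901, 1809.7 and 2558 CPM in Control. No injured library reached the Control range, and the log2 fold change was -2.05 ± 0.42, -3.11 ± 0.44 and -2.85 ± 0.44 (edgeR, adjusted p = 0.00043, 2.55e-06 and 1.02e-05). The near-identical pair Cyp4a12a and Cyp4a12b gave opposite calls: in UIRI+Nx d7 over Control, Cyp4a12a fell, with a log2 fold change of -1.16, and Cyp4a12b rose, with 1.50. Since 37.0% of their 3′ words are shared, the split of reads between the pair is uncertain. Cyp4a12a also fell in UIRI d7 over Control (-1.39), and Cyp4a31 fell in all 3 groups over Control (-1.13, -1.49 and -0.83). Cyp4f13 fell in UIRI d3 over Control (-0.68), a call lost without Control replicate 4 (adjusted p = 0.0542).

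Cyp4f18, a leukotriene B4 hydroxylase known from mouse myeloid cells, rose over Control in all 3 groups. It had 4.13, 5.87 and 11.7 CPM in UIRI+Nx d7, 6.92, 10.5 and 24.7 in UIRI d7 and 3.21, 4.51 and 8.31 in UIRI d3, against 0.850, 1.34 and 2.51 CPM in Control, with no overlap with Control. The log2 fold change was 2.25 ± 0.36, 3.15 ± 0.37 and 1.82 ± 0.36 (edgeR, adjusted p = 2.04e-05, 1.33e-07 and 0.000241). It was the member that rose at day 7 over day 3 in both cohorts, by 1.33 in UIRI d7 over UIRI d3 and by 0.59 in WT_IRd7 over WT_IRd3 (adjusted p = 0.0298 and 0.0488). These calls were lost without any 1 of 6 and of 10 libraries (highest adjusted p = 0.0961 and 0.124), and both with the library block as a covariate. Macrophage markers moved in the same direction. Their summed level was 1063 to 2139 CPM in UIRI+Nx d7, 1383 to 3133 in UIRI d7 and 428 to 855 in UIRI d3, against 163 to 325 CPM in Control. Of the 7 markers, 6 rose and none fell at day 7 over day 3 in each cohort, none is at 0 in any group, and their part in the Cyp4f18 result was not tested. Cyp4f16 and Cyp4v3, a fatty acid hydroxylase gene, rose over Control by 1.09 and 0.85 in UIRI+Nx d7, 1.66 and 1.32 in UIRI d7, and 1.41 and 0.82 in UIRI d3.

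With nephrectomy no Cyp4 member was called in UIRI+Nx d7 over UIRI d7 (edgeR, 0 of 10, with 3 at an unadjusted p under 0.05, and 0 in DESeq2), while 4 of 10 rose in WT_IRNxd7 over WT_IRd7. These 4 are the Cyp4a genes Cyp4a10, Cyp4a12b, Cyp4a14 and Cyp4a31, fatty acid omega-hydroxylases that lie in one cluster (chr4:115106323-115647723, GRCm38). Cyp4a12b had 64.4, 101, 70.2 and 85.7 CPM in the 4 WT_IRNxd7 libraries, against 22.3, 32.1 and 35.5 CPM in WT_IRd7, and the log2 fold change was 1.37 ± 0.17 (edgeR, adjusted p = 9.04e-05). Cyp4a31 had 185, 348, 187 and 289 CPM in WT_IRNxd7, against 58.8, 104 and 140.4 CPM in WT_IRd7, a log2 fold change of 1.35 ± 0.21 (adjusted p = 0.000757). These groups did not overlap. Cyp4a10 had 227, 457, 200.2 and 376 CPM in WT_IRNxd7, against 60.1, 91.6 and 210.0 CPM in WT_IRd7, with 1 WT_IRd7 library inside the WT_IRNxd7 range (1.55 ± 0.30, adjusted p = 0.00383). Cyp4a14 had 496, 1155, 152 and 752 CPM in WT_IRNxd7, against 67.9, 97.7 and 444 CPM in WT_IRd7, and the groups overlapped. Its log2 fold change was 2.07 ± 0.50 (adjusted p = 0.0186), or 2.77 without WT_IRd7 replicate 5, and the call was lost without WT_IRNxd7 replicate 2, the highest library (adjusted p = 0.112).

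In the first cohort the same 4 genes had log2 fold changes of 0.39 (Cyp4a10), 0.57 (Cyp4a12b), 0.89 (Cyp4a14) and 0.36 (Cyp4a31) in UIRI+Nx d7 over UIRI d7, with adjusted p-values of 0.696, 0.26, 0.655 and 0.47 in edgeR. Cyp4a14 varied widely there, with 269, 395 and 1184 CPM in UIRI+Nx d7, 32.8, 94.5 and 1148 in UIRI d7 and 35.4, 58.2 and 887 in UIRI d3, against 8.33, 26.7 and 332 CPM in Control. Over Control it rose in UIRI+Nx d7 by 2.68 ± 0.97 (adjusted p = 0.0373), a call lost without any 1 of 7 libraries (highest adjusted p = 0.0902, without UIRI+Nx d7 replicate 4). Its log2 fold change was 2.27 to 4.002 over the leave-one-out fits, highest without Control replicate 6, the highest Control library.

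Cyp1b1 and Cyp3a13 were the members of their families that were tested. Cyp1b1, which oxidises estrogens and polycyclic hydrocarbons, had 32.3, 39.9 and 74.8 CPM in UIRI+Nx d7, 15.7, 24.8 and 47.5 in UIRI d7 and 21.3, 32.7 and 63.6 in UIRI d3, against 11.9, 17.4 and 24.3 CPM in Control. All UIRI+Nx d7 libraries lay above all Control libraries, and it rose by 1.38, 0.70 and 0.99 on the log2 scale. The UIRI d7 call was lost without any 1 of 8 libraries (highest adjusted p = 0.16, without UIRI d7 replicate 6). Cyp3a13, of the family with the main drug-oxidising P450s of liver and gut, averaged 1.53 ± 0.550 CPM in UIRI+Nx d7, 1.67 ± 0.476 in UIRI d7 and 1.91 ± 0.609 in UIRI d3, against 0.448 ± 0.213 CPM in Control (SD, n = 6 each). It rose by 1.70, 1.82 and 2.02 on the log2 scale (edgeR, highest adjusted p = 0.00076, for UIRI+Nx d7). In this cohort the Cyp3a13 mean reached the 1 CPM level in the injured groups only. At its Control level, only a rise could bring a gene into the test. Fibroblast markers also rose over Control, 7 of 7 in UIRI+Nx d7 and 6 of 7 in UIRI d7 and in UIRI d3. Their summed level was 2116 to 2684, 1394 to 2501 and 1268 to 2130.3 CPM in these groups, against 282 to 453 CPM in Control, none was at 0, and their part in the Cyp1b1 result was not tested.

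**Figure D3:**
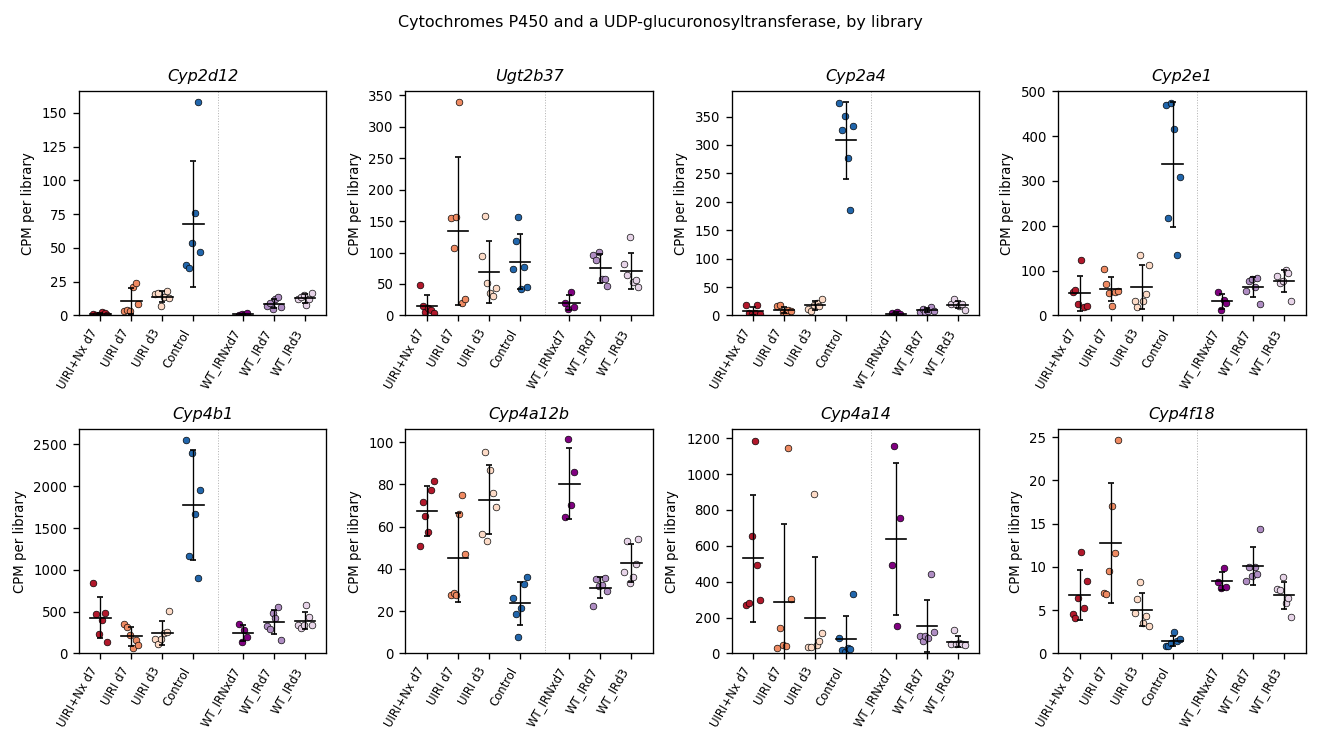
CPM of Cyp2d12, Ugt2b37, Cyp2a4, Cyp2e1, Cyp4b1, Cyp4a12b, Cyp4a14 and Cyp4f18 by group, with a point for each library, a bar for the mean and whiskers for 1 SD. Cyp2d12 lies at 0.249 to 2.70 CPM in UIRI+Nx d7 and 0.444 to 1.50 CPM in WT_IRNxd7, below all libraries of the other groups of its cohort. Cyp2a4, Cyp2e1 and Cyp4b1 show the drop of the first cohort's injured groups below Control.

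Among the conjugating enzymes, the glutathione S-transferases held 9 of the 14 members that rose with nephrectomy in the first cohort, and 6 of 13 in the second. Of 16 Gst members tested, 9 rose and 0 fell in UIRI+Nx d7 over UIRI d7, and 6 rose and 0 fell in WT_IRNxd7 over WT_IRd7, with median log2 fold changes of 0.82 and 0.51. With nephrectomy 3.17% and 2.58% of all genes rose in the first and second cohort. Over Control the direction was the opposite after injury alone, with 9 lower and 1 higher in UIRI d3 (14.9% and 17.8% of all genes). In UIRI d7 over Control 8 were lower and 1 higher (18.1% and 21.5%), and in UIRI+Nx d7 over Control 5 rose and 2 fell (17.3% and 14%). Gsta2, Gsta4, Gstm1, Gstm7, Gstt3 and Gstz1 rose with nephrectomy in both cohorts. These 6 are all the members that did so, and make up 42.9% of the 14 risen members of the first cohort and 46.2% of the 13 of the second. The same overlap was not computed over all genes, so these shares have no background to be set against.

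Start regions of 4 members that rose with nephrectomy in the first cohort are shown because they hold a letter pattern known from stress-response promoters. Each runs from 250 bases before to 50 bases after a RefSeq gene start (GRCm38.p6) and is written 5′ to 3′ along the gene. Capitals mark TGACNNNGC, the core of the antioxidant response element bound by NRF2, found on either strand in Gsta3 (chr1:21240335-21240634, plus strand), Gstm7 (chr3:107931565-107931864, minus strand) and Cyp2j6 (chr4:96553602-96553901, minus strand). In Gsta2 (chr9:78347096-78347395, minus strand) they mark GCGTG, the core of the aryl hydrocarbon receptor (AHR) response element.
Gsta2: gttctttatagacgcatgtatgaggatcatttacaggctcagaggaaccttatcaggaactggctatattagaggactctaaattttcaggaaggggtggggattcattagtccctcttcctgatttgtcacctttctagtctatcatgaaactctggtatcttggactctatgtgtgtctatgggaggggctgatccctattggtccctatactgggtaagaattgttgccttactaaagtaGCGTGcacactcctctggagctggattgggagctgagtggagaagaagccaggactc
Gsta3: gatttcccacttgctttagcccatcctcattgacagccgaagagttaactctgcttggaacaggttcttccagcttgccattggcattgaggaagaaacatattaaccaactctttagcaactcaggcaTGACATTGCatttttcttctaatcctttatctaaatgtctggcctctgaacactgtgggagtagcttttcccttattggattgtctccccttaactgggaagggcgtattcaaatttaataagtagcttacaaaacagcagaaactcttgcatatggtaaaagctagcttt
Gstm7: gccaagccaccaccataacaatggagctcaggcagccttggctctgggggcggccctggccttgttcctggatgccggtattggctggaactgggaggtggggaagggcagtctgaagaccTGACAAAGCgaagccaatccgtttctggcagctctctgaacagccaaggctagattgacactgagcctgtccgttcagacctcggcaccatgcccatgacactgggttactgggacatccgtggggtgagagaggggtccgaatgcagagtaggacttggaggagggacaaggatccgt
Cyp2j6: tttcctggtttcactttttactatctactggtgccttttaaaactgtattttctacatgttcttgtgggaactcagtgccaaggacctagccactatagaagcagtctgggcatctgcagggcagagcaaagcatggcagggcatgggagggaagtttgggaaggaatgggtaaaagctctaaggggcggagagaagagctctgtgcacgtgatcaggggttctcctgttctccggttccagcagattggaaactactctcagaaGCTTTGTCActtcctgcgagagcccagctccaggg
Of the 14 members that rose in the first cohort, 12 have a start region in the set searched here. Gsta4 and Gstt2 are missing from that set and were not searched. The NRF2 core was in 3 of the 12, in 5 of 46 tested members with a start region in the set (10.9%), and in 12.4% of all 32851 start regions of this length. The AHR core was in 3 of the 12, in 12 of the 46 (26.1%) and in 32.4% of all start regions. A second RefSeq start of Gstm7 holds neither the NRF2 core nor the AHR core. Members were counted as genes, with a match in any of their start regions, while the background share counts each start region. A gene with several starts has more places for a match, so these shares are not measured alike. A further pattern, the direct repeat of the half-site AGGTCA with 1 base between that nuclear receptors bind (DR1), was in 0.0396% of all start regions and in 0 of the 46. Both strands were searched for each pattern, the patterns do not overlap in the printed sequences, and a match describes letters, not a binding site.

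Alpha-class enzymes conjugate lipid peroxidation products and steroid intermediates. Gsta2 (ENSMUSG00000057933, chr9:78331018-78355788, minus strand, GRCm38) had 284, 326 and 424 CPM in UIRI+Nx d7, 18.1, 76.5 and 146 in UIRI d7 and 31.1, 92.9 and 101 in UIRI d3, against 56.2, 114 and 215 CPM in Control. In the second cohort it had 350.2, 251, 225 and 218 CPM in the 4 WT_IRNxd7 libraries, against 88.0, 124 and 155 CPM in WT_IRd7 and 87.3, 127 and 159 CPM in WT_IRd3. The nephrectomy libraries lay above all other libraries of their cohort. The log2 fold change was 2.002 ± 0.37 in UIRI+Nx d7 over UIRI d7 (edgeR, adjusted p = 0.00146) and 1.08 ± 0.18 in WT_IRNxd7 over WT_IRd7 (adjusted p = 0.00176). Over Control, Gsta2 rose in UIRI+Nx d7 by 1.50 ± 0.37, and it was not called in UIRI d7 (-0.50) or UIRI d3 (-0.65).

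Gsta4 (ENSMUSG00000032348, chr9:78182774-78209349, plus strand, GRCm38), which conjugates the lipid aldehyde 4-hydroxynonenal, had 48.2, 65.2 and 95.6 CPM in UIRI+Nx d7, 5.81, 8.73 and 17.5 in UIRI d7 and 5.17, 9.54 and 13.4 in UIRI d3, against 15.7, 21.9 and 32.6 CPM in Control. It fell in UIRI d3 and UIRI d7 over Control, with log2 fold changes of -1.25 and -1.26, and in UIRI+Nx d7 it rose over Control by 1.54 ± 0.25 and over UIRI d7 by 2.80 ± 0.26 (edgeR, adjusted p = 2.45e-05 and 6.37e-07). All UIRI+Nx d7 libraries lay above all libraries of the other 3 groups. In the second cohort the WT_IRNxd7 libraries had 30.4, 23.9, 11.5 and 27.6 CPM, against 5.02, 6.94 and 9.35 CPM in WT_IRd7, again with no overlap, and the log2 fold change was 1.74 ± 0.24 (adjusted p = 0.000215). Gsta3 (ENSMUSG00000025934, chr1:21240589-21265661, plus strand, GRCm38), which detoxifies aflatoxin epoxide in mice, had 97.8, 109 and 131 CPM in UIRI+Nx d7, 7.81, 32.4 and 55.7 in UIRI d7 and 20.0, 45.2 and 54.9 in UIRI d3, against 67.0, 85.6 and 131 CPM in Control. The UIRI+Nx d7 and UIRI d7 libraries did not overlap, and the log2 fold change between them was 1.75 ± 0.29 (adjusted p = 0.000506). In the second cohort Gsta3 had 55.4, 52.4, 42.1 and 51.2 CPM in WT_IRNxd7, against 30.1, 38.6 and 51.7 CPM in WT_IRd7, and was not called (0.35 ± 0.17, adjusted p = 0.264).

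Mu-class genes lie in one cluster (chr3:107895821-108044894, GRCm38), of which Gstm1 and Gstm7 rose with nephrectomy in both cohorts. Gstm1, an abundant mu-class transferase of epoxides and quinones, had 255, 330.2 and 569.7 CPM in UIRI+Nx d7, 119, 189 and 328 in UIRI d7 and 106, 119 and 194 in UIRI d3, against 253, 295 and 339.6 CPM in Control. The UIRI+Nx d7 and UIRI d7 ranges overlapped, and the log2 fold change was 0.89 ± 0.23 (edgeR, adjusted p = 0.0169, and 0.0572 without UIRI+Nx d7 replicate 4). The WT_IRNxd7 libraries had 257, 354, 222 and 304 CPM, above the 119, 182 and 218 CPM of WT_IRd7, a log2 fold change of 0.71 ± 0.17 (adjusted p = 0.0186, and 0.107 without WT_IRNxd7 replicate 2). Gstm7, a less studied member of the class, had 4.64, 7.75 and 12.1 CPM in UIRI+Nx d7, against 2.08, 3.16 and 7.34 CPM in UIRI d7, and 6.23, 11.5, 6.80 and 12.6 CPM in WT_IRNxd7, against 2.65, 3.99 and 5.31 CPM in WT_IRd7. The second-cohort groups did not overlap. It rose by 1.13 ± 0.30 in UIRI+Nx d7 over UIRI d7 (adjusted p = 0.0232, lost without any 1 of 5 libraries, at most 0.0623) and by 1.25 ± 0.24 in WT_IRNxd7 over WT_IRd7 (adjusted p = 0.00364). Set against Control, Gstm1 fell in UIRI d3 (-1.12, adjusted p = 0.000338), a call kept without any 1 library, and in UIRI d7 (-0.60, lost without any 1 of 7 libraries, at most 0.0959) and Gstm7 rose in UIRI+Nx d7 (0.86, lost without any 1 of 5, at most 0.0866). Gstm2 fell in UIRI d3 over Control (-0.74), and Gstm4 fell in UIRI+Nx d7 over Control (-0.62), a call lost without UIRI+Nx d7 replicate 4 or Control replicate 4 (highest adjusted p = 0.0669, without Control replicate 4). Gstm6 rose over Control in all 3 groups, by 1.17 in UIRI+Nx d7, 2.01 in UIRI d7 and 1.36 in UIRI d3. Gstm5, known from brain and testis, was called in no comparison and averaged between 109.7 and 155 CPM over the 7 groups.

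Of the other classes, Gstt3, Gstz1, Gstt1 and Gstt2 rose in UIRI+Nx d7 over UIRI d7, and Gstt3 and Gstz1 also in WT_IRNxd7 over WT_IRd7. Gstt3, a theta-class transferase of small halogenated compounds, had 99.2, 139.6 and 157 CPM in UIRI+Nx d7, 55.6, 73.3 and 99.3 in UIRI d7 and 73.1, 90.3 and 114 in UIRI d3, against 123, 169 and 218 CPM in Control. Its log2 fold change was 0.86 ± 0.16 in UIRI+Nx d7 over UIRI d7 (edgeR, adjusted p = 0.00134) and 0.52 ± 0.13 in WT_IRNxd7 over WT_IRd7 (adjusted p = 0.0186, and 0.0934 without WT_IRNxd7 replicate 2). The first-cohort ranges overlapped by a single library, and the WT_IRNxd7 libraries, at 82.4, 104, 96.8 and 89.6 CPM, lay above the 56.8, 62.0 and 79.0 CPM of WT_IRd7. Gstz1, the maleylacetoacetate isomerase of tyrosine breakdown, had 126, 157 and 224 CPM in UIRI+Nx d7, 62.8, 83.0 and 118 in UIRI d7 and 93.5, 113 and 158 in UIRI d3, against 230.0, 249 and 387 CPM in Control. It fell over Control in all 3 groups, with log2 fold changes of -0.77 in UIRI+Nx d7, -1.68 in UIRI d7 and -1.22 in UIRI d3. The UIRI+Nx d7 libraries lay above all UIRI d7 libraries (0.91 ± 0.18, adjusted p = 0.0024). In the second cohort Gstz1 had 137, 246, 141 and 261 CPM in WT_IRNxd7, against 92.4, 117 and 147 CPM in WT_IRd7, with overlapping ranges (0.74 ± 0.19, adjusted p = 0.0301), and the call was lost without any 1 of 5 libraries (at most 0.149).

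Gstt1 and Gstt2, theta-class neighbours of Gstt3, rose in UIRI+Nx d7 over UIRI d7 by 0.62 ± 0.15 and 0.98 ± 0.25 (edgeR, adjusted p = 0.0145 and 0.0175). The Gstt1 groups did not overlap, and the Gstt2 groups did. Gstt2 had 98.9, 179 and 400.3 CPM in UIRI+Nx d7, 72.9, 106 and 128 in UIRI d7 and 85.3, 116 and 157 in UIRI d3, against 200.4, 246 and 353 CPM in Control, and its call was lost without UIRI+Nx d7 replicate 4 (adjusted p = 0.0707). In WT_IRNxd7 over WT_IRd7 the log2 fold changes were 0.33 for Gstt1 and 0.52 for Gstt2, neither called (adjusted p = 0.199 and 0.0817). Gsto1, an omega-class thioltransferase, rose over Control in UIRI+Nx d7 by 0.96, and Gstk1, a kappa-class enzyme of mitochondria and peroxisomes, fell over Control in UIRI d7 (-1.39) and UIRI d3 (-1.35). Gsto2 fell in UIRI d3 over Control (-1.68).

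**Figure D4:**
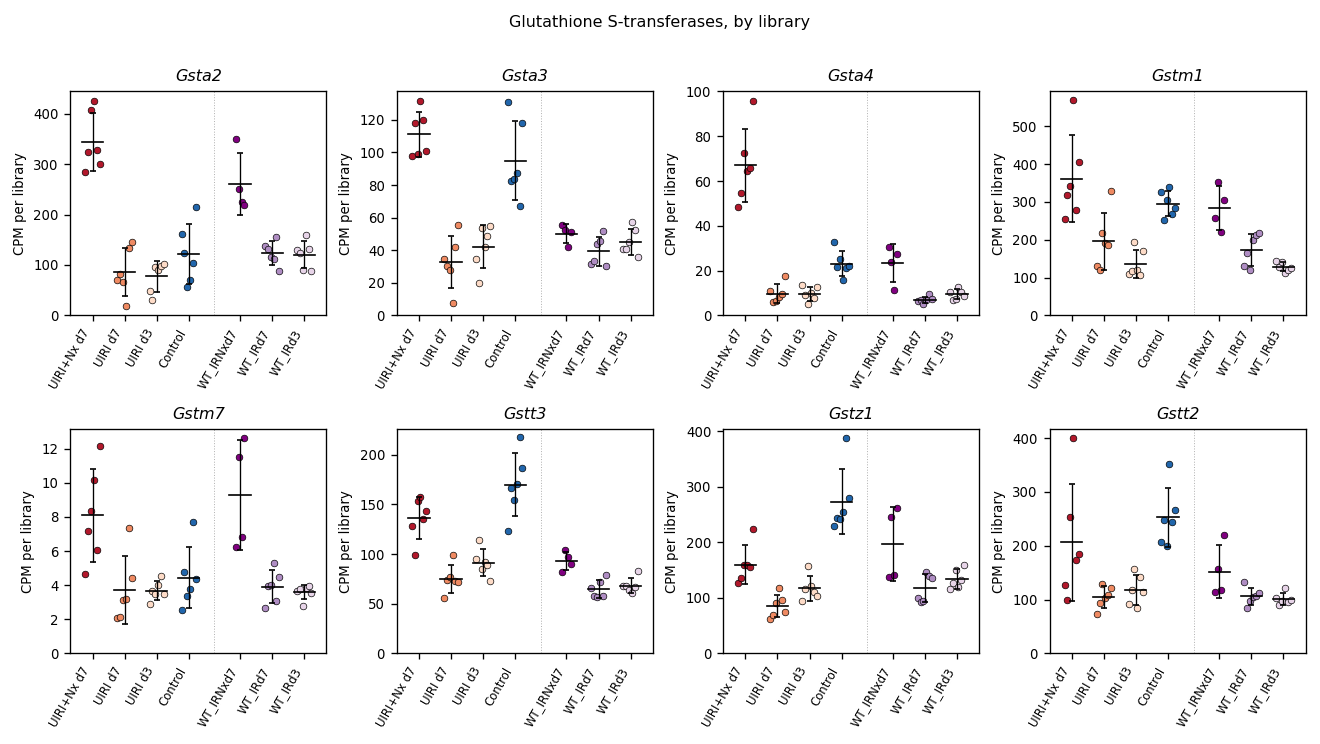
CPM of Gsta2, Gsta3, Gsta4, Gstm1, Gstm7, Gstt3, Gstz1 and Gstt2 by group, with a point for each library, a bar for the mean and whiskers for 1 SD. Gsta4 runs over 48.2 to 95.6 CPM in UIRI+Nx d7, above the 15.7 to 32.6 CPM of Control, while Gstz1 in UIRI+Nx d7, at 126 to 224 CPM, lies between UIRI d7 and Control.

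Sulfotransferases moved one by one. Over Control 4 of 7 tested members rose and 0 fell in UIRI+Nx d7 (17.3% and 14% of all genes). In UIRI d7 3 rose and 2 fell (21.5% and 18.1%), and in UIRI d3 3 rose and 1 fell (17.8% and 14.9%). The 14.3% of members that fell in UIRI d3 is near the share of all genes. Sult1d1, which sulfates catecholamines, had 221, 437 and 709 CPM in UIRI+Nx d7, 132, 158 and 254 in UIRI d7 and 130.3, 239 and 354 in UIRI d3, against 271, 458 and 765 CPM in Control. Over Control it fell in UIRI d7 (-1.46 on the log2 scale) and UIRI d3 (-1.06), and it rose by 1.28 ± 0.27 in UIRI+Nx d7 over UIRI d7 (edgeR, adjusted p = 0.00457), with overlapping ranges. Sult1a1, the phenol sulfotransferase, had 13.7, 23.0 and 33.2 CPM in UIRI+Nx d7, 4.25, 9.79 and 14.0 in UIRI d7 and 5.10, 6.19 and 13.5 in UIRI d3, against 9.17, 11.8 and 15.0 CPM in Control. Its log2 fold change in UIRI+Nx d7 was 1.34 ± 0.28 over UIRI d7, 1.58 ± 0.28 over UIRI d3 and 0.96 ± 0.27 over Control (adjusted p = 0.00374, 0.000799 and 0.00815). The UIRI+Nx d7 libraries lay above all UIRI d3 libraries and overlapped with UIRI d7 and Control. In WT_IRNxd7 over WT_IRd7 the log2 fold changes of Sult1d1 and Sult1a1 were 0.52 and 0.02, neither called. Sult1c2 fell there, with a log2 fold change of -0.94 ± 0.17 (adjusted p = 0.00271), with 10.8, 9.70, 14.9 and 14.3 CPM in WT_IRNxd7, below the 18.7, 22.9 and 33.0 CPM of WT_IRd7, and in UIRI+Nx d7 over UIRI d7 its log2 fold change was 0.01. Sult5a1 rose over Control by 1.92, 1.95 and 1.57 on the log2 scale in UIRI+Nx d7, UIRI d7 and UIRI d3. Sult5a1 also rose in WT_IRNxd7 over WT_IRd7 (1.13), a call lost without any 1 of 9 libraries (highest adjusted p = 0.198, without WT_IRNxd7 replicate 2). Sult4a1, known from brain, rose over Control by 2.18, 3.59 and 2.61 in the same groups, and Sult2b1, which sulfates cholesterol, by 1.42, 1.12 and 1.24. Sult4a1 averaged under 1 CPM in Control, so only a rise could bring it into the test, as for Cyp3a13. The Sult4a1 call for UIRI+Nx d7 was lost without UIRI+Nx d7 replicate 1 or 5 (highest adjusted p = 0.0538, without UIRI+Nx d7 replicate 1). Sult1b1, which sulfates thyroid hormones, fell in UIRI d7 over Control (-1.58) and over UIRI d3 (-1.40), the second call being lost without any 1 of 7 libraries (highest adjusted p = 0.0856, without UIRI d3 replicate 2).

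UDP-glucuronosyltransferases of the Ugt2b cluster on chromosome 5 also differed from each other, and of 6 Ugt members tested 2, 3 and 2 fell and 0 rose in UIRI+Nx d7, UIRI d7 and UIRI d3 over Control. In these comparisons 14%, 18.1% and 14.9% of all genes fell, and 17.3%, 21.5% and 17.8% rose. Ugt2b38, one of the steroid- and drug-conjugating Ugt2b enzymes, had 30.4, 56.2 and 119.6 CPM in UIRI+Nx d7, 27.1, 68.8 and 130.0 in UIRI d7 and 53.8, 128 and 195 in UIRI d3, against 166, 285 and 657 CPM in Control. It fell over Control in all 3, with log2 fold changes of -2.41 ± 0.44, -2.26 ± 0.44 and -1.54 ± 0.43 (edgeR, adjusted p = 0.00011, 0.000147 and 0.00624), and of these groups only UIRI d3 overlapped with Control. It also fell in WT_IRd7 over WT_IRd3, with -1.10 ± 0.23 (adjusted p = 0.0051), a call lost with the library block as a covariate. Ugt2b37 (ENSMUSG00000057425, chr5:87240493-87254804, minus strand, GRCm38) had 3.91, 10.0 and 48.0 CPM in UIRI+Nx d7, 19.3, 131 and 339.6 in UIRI d7 and 31.6, 47.7 and 158 in UIRI d3, against 41.8, 75.6 and 157 CPM in Control. Its highest UIRI+Nx d7 library exceeded the lowest library of each other group. The log2 fold change was -3.10 ± 0.64 in UIRI+Nx d7 over UIRI d7 and -2.46 ± 0.62 over Control (adjusted p = 0.00342 and 0.00307), or -3.89 and -3.25 without UIRI+Nx d7 replicate 1, its highest library there. In WT_IRNxd7 the libraries had 19.7, 10.5, 37.1 and 14.0 CPM, all below the 46.8, 73.4 and 101 CPM of WT_IRd7, a log2 fold change of -1.88 ± 0.34 (adjusted p = 0.00281). Ugt2b37 and Cyp2d12 were the members that fell with nephrectomy in both cohorts, 100% of the 2 that fell in the first cohort and 50.0% of the 4 in the second, an overlap not computed over all genes. Ugt2b34, in the same cluster, had 12.5, 22.9 and 34.3 CPM in UIRI+Nx d7, against 1.95, 10.2 and 13.2 CPM in UIRI d7, and rose by 1.31 ± 0.31 (adjusted p = 0.0103), with overlapping ranges. In WT_IRNxd7 over WT_IRd7 its log2 fold change was 0.87 and not called (adjusted p = 0.112). Ugt1a7c fell in UIRI d3 over Control (-1.26), Ugt2a3 in UIRI d7 over Control (-1.55) and Ugt2b34 in UIRI d7 over Control (-0.82), calls lost without any 1 of 7, of 4 and of 5 libraries (highest adjusted p = 0.101, 0.0866 and 0.0875). Ugt2b5 was called in no comparison.

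The nephrectomy effect was compared between the cohorts in a fit of all 7 groups. No gene passed the test (0 of 16606, edgeR), and 17 of 58 members had an unadjusted p under 0.05 (29.3%), as did 8.5% of all genes. Gsta3 had the lowest p of the members, with a difference of 1.40 ± 0.37 on the log2 scale between the first and second cohort (adjusted p = 0.443), followed by Cyp2a5 with 2.20 ± 0.68 (adjusted p = 0.488). A call made in 1 cohort was thus not shown to differ from the other.

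**Figure D5:**
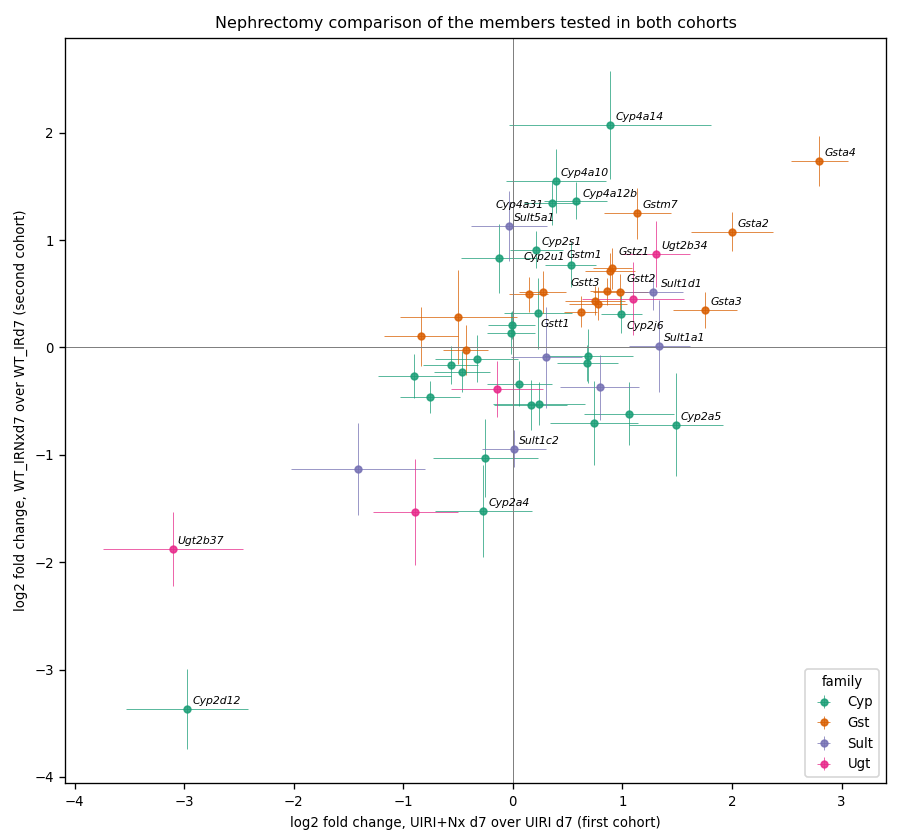
Log2 fold change with nephrectomy for each member tested in both cohorts, UIRI+Nx d7 over UIRI d7 on the x axis and WT_IRNxd7 over WT_IRd7 on the y axis, with bars of 1 SE. Gsta4 (2.80 and 1.74) and Gsta2 (2.002 and 1.08) lie farthest right among the members that rose in both cohorts, and Cyp2d12 (-2.97 and -3.37) and Ugt2b37 (-3.10 and -1.88) lie at the lower left.

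Genes that supply these enzymes with electrons, heme and cofactors mostly fell after injury. Of 6 P450 partners, 3, 5 and 4 fell and 0 rose in UIRI+Nx d7, UIRI d7 and UIRI d3 over Control, with list medians of -0.50, -1.02 and -0.80 on the log2 scale. Por, the oxidoreductase that passes electrons to P450s, fell in all 3 groups, with log2 fold changes of -0.61, -0.97 and -0.88. Fech, which inserts iron into heme, rose with nephrectomy in both cohorts, by 0.68 in UIRI+Nx d7 over UIRI d7 and 0.59 in WT_IRNxd7 over WT_IRd7 (edgeR, adjusted p = 0.0235 and 0.00595). Of 13 genes of glutathione synthesis and the mercapturate pathway, 8, 9 and 8 fell and 2, 1 and 1 rose in the 3 groups over Control, with list medians of -1.09, -1.24 and -0.84. Among them Gclc, the catalytic subunit that limits glutathione synthesis, fell (-1.17, -1.79 and -1.25), and Slc7a11, the cystine importer, rose by 4.05, 2.77 and 3.62. With nephrectomy 1 of these 13 rose and 0 fell in the first cohort (Nat8, which forms mercapturates, 0.99), and 0 rose and 1 fell in the second (Acy3, which deacetylates mercapturates, -1.02). Of 6 genes for sulfate donor (PAPS) supply, 3 fell over Control in each of the 3 groups and 1 rose in UIRI+Nx d7 over UIRI d7 (Papss2, 0.75). Of 4 genes for glucuronic acid donor supply, 1, 3 and 2 fell over Control, and 1 rose in UIRI+Nx d7 over UIRI d7 (Ugdh, 0.79). In WT_IRNxd7 over WT_IRd7 no gene of these last lists, 6 and 4 genes, was called.

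Of 24 other enzymes of oxidation, reduction and hydrolysis, 9 rose and 0 fell with nephrectomy in each cohort, where 3.17% and 2.58% of all genes rose. The list median was 0.58 in the first and 0.32 in the second on the log2 scale. In UIRI+Nx d7, UIRI d7 and UIRI d3 over Control, 10, 17 and 14 of them fell and 6, 3 and 4 rose. The shares of all genes there were 14%, 18.1% and 14.9% lower and 17.3%, 21.5% and 17.8% higher. Of 11 other conjugating enzymes tested, 6, 10 and 9 fell and 1 rose in each of these groups over Control. With nephrectomy 1 of the 11 rose and 1 fell in the first cohort, and 1 rose and 2 fell in the second. Nqo1, a quinone reductase and textbook NRF2 target, averaged 74.6 CPM in UIRI+Nx d7 and 13.4 CPM in UIRI d7, and rose by 2.48 ± 0.26 (edgeR, adjusted p = 1.57e-06). In WT_IRNxd7 over WT_IRd7 it rose by 1.49 ± 0.22 (adjusted p = 0.000433). Cbr1, a carbonyl reductase, rose by 1.56 and 1.22, and the efflux pump Abcc2, which exports glutathione and glucuronide conjugates, by 1.79 and 1.20 in the first and second cohort. Of 19 regulators, 2 rose and 1 fell in each cohort (3.17% and 3.46% of all genes in the first, 2.58% and 2.66% in the second). Ppara, the fatty acid receptor that drives Cyp4a genes, rose by 1.55 and 1.44, and Cebpa, a liver-enriched factor, fell, with log2 fold changes of -0.75 and -0.66. The mRNA of Nfe2l2 (NRF2) had log2 fold changes of 0.50 in the first cohort (adjusted p = 0.363) and 0.54 in the second (adjusted p = 0.0417), and that of Ahr 0.08 and -0.07, called in neither. The part of these regulators in the enzyme results was not tested.

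Cell type markers moved with these groups too. For comparison, 14%, 18.1% and 14.9% of all genes fell in UIRI+Nx d7, UIRI d7 and UIRI d3 over Control, and 17.3%, 21.5% and 17.8% rose. With nephrectomy 3.17% and 2.58% of all genes rose in the first and second cohort, and 3.46% and 2.66% fell. Of 18 proximal tubule markers, 13, 18 and 16 fell and 0 rose in UIRI+Nx d7, UIRI d7 and UIRI d3 over Control, with list medians of -1.34, -1.93 and -1.35 on the log2 scale. Their summed level was 7791 to 13173 CPM in UIRI+Nx d7, 5384 to 8204 in UIRI d7 and 8075 to 11439 in UIRI d3, against 18683 to 27712 CPM in Control. With nephrectomy 5 rose and 0 fell in the first cohort, and 4 rose and 3 fell in the second, where the sums were 7956 to 11131 CPM in WT_IRNxd7 and 6059 to 10855 CPM in WT_IRd7. Slc7a13, a marker of the last proximal segment, fell there, with a log2 fold change of -3.67. The 5 tubular injury markers all rose over Control in each of the 3 groups, with sums of 674 to 1089 CPM in UIRI+Nx d7, 865 to 1928 in UIRI d7 and 1437 to 2474 in UIRI d3, against 26.7 to 51.6 CPM in Control. With nephrectomy 2 fell in each cohort (Havcr1 and Vcam1), and 0 rose in the first and 1 in the second. That one was Lcn2, with log2 fold changes of 1.08 in WT_IRNxd7 over WT_IRd7 (adjusted p = 0.00565) and 1.04 in UIRI+Nx d7 over UIRI d7 (adjusted p = 0.218, not called). Markers of the distal convoluted and connecting tubule summed to 330.4 to 718 CPM in UIRI+Nx d7, 134 to 192 in UIRI d7 and 109 to 215 in UIRI d3, against 929.8 to 1432 CPM in Control. In WT_IRNxd7 they summed to 168 to 490.0 CPM (Pvalb at 0), against 81.6 to 139 CPM in WT_IRd7, so the groups did not overlap with nephrectomy in either cohort. Calb1, a calcium-binding protein, was the marker of this list called there, with log2 fold changes of 2.94 in the first cohort (1 of 5 tested) and 3.54 in the second (1 of 4). In UIRI+Nx d7, UIRI d7 and UIRI d3 over Control, 3, 3 and 4 of these 5 markers fell, as did 2, 4 and 6 of 6 collecting duct markers and 3, 4 and 2 of 4 loop of Henle markers, and 0 rose. With nephrectomy, 0 of the 6 collecting duct markers were called in the first cohort and 1 rose in the second, and 0 loop of Henle markers were called in either. Hepatocyte markers summed to 48.5 to 322 CPM in UIRI+Nx d7, 30.8 to 59.6 in UIRI d7 and 48.7 to 123 in UIRI d3, against 109 to 244 CPM in Control (Tat at 0), and 1 of 5 tested (Ttr) rose and 0 fell in UIRI+Nx d7 over UIRI d7. The part of the proximal and distal tubule, collecting duct, loop of Henle, injury and hepatocyte markers in the enzyme results was not tested.

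Library numbers in the column names fall into blocks, which the labels do not call batches. All 16 members called in UIRI+Nx d7 over UIRI d7 kept their direction within the block that held 3 libraries of each group, where 0 members and 0 of 14817 genes were called. All 17 called in WT_IRNxd7 over WT_IRd7 kept their direction within both blocks, of 2 against 2 and 2 against 4 libraries, where 0 and 1 members were called, against 8 of 16409 and 16 of 14273 genes. The libraries of these blocks are among those that made the calls, so a kept direction is not an independent check. With the block as a covariate, 15 of the 16 (all but Cyp2a5, adjusted p = 0.0632) and 16 of the 17 (all but Sult5a1, adjusted p = 0.0542) stayed called. All 6 WT_IRd3 libraries are in the block of 2 against 2, with 2 of the 6 WT_IRd7 libraries. With the block as a covariate, 1 of the 3 calls of WT_IRd7 over WT_IRd3 was kept (Cyp4a31), and 349 genes were called, against 1330 without it. Likewise 15 of the 20 calls of WT_IRNxd7 over WT_IRd3 and 35 of the 42 calls of UIRI d7 over Control were kept.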

How the data were processed

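Gene counts were deposited for 41 libraries. Per the labels' protocols they are QuantSeq 3′ forward libraries made from 500 ng of RNA. Per the submitters' processing notes, the first cohort was processed with Trimmomatic, STAR and HTSeq 0.6.1 on GRCm38 (mm10), and the second with STAR 2.7.11b on GRCm39. Annotation and strand setting are not stated in these sources, so group levels are compared within a cohort and antisense neighbours cannot be told apart. Gene coordinates and types were read from GENCODE on GRCm38, which is the first cohort's build, and start regions from RefSeq on GRCm38.p6. Symbols were found for 48349 of 48795 gene IDs. Exons overlapped those of another gene in 18 members on the same strand and in 22 on the opposite strand.

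The members and gene lists were chosen with earlier results of these data known. Counts were fitted for each cohort with edgeR 4.0.16 in R 4.3.3 (limma 3.58.1), with TMM scaling, filterByExpr, a quasi-likelihood F test over all groups of the cohort and Benjamini-Hochberg adjustment. The threshold was 0.05. SE is the standard error of the log2 fold change. The fit was first tested on simulated data. The cohorts' nephrectomy effects were compared by an interaction term in a joint fit. Alternatives were DESeq2 1.42.0, its size factors, other filters, 2-group fits, library blocks, replicate number as a block and leaving out each library. Same-numbered libraries correlated by -0.424 to 0.447 after removing group means, and in no comparison was every pair over 0.1, so the numbers were not taken as pairs.

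Values per library were given for up to 3 members per family with the highest Control mean, up to 6 members per direction and comparison with the largest fold change among those called at 5 CPM or more, and members called with nephrectomy in both cohorts. They were also given for Cyp2j6, which meets none of these rules. List genes were named by smallest adjusted p, up to 3 per list and comparison. Nfe2l2 and Ahr were named because their motifs were searched, and a few other genes were named after their values were seen. A column of undetermined reads, with no group in the labels, entered no comparison.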

Additional observations from a re-analysis of the deposited data

Results flagged for a closer look

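In 28 of 259 sets of one member in one group, the highest or lowest library stood apart from the others by more than Dixon's 95% limit. For normally distributed values chance gives about 1 in 20. The distribution of these CPM was not tested and the sets share libraries, so an excess over chance is not shown. All values here are CPM of that library.

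Cyp4a14, a fatty acid omega-hydroxylase, had such a high library in 5 of its 7 groups. These were 1148 in UIRI d7 replicate 5, 887 in UIRI d3 replicate 3, 332 in Control replicate 6, 444 in WT_IRd7 replicate 5 and 129.7 in WT_IRd3 replicate 2. Cyp4a10, from the same cluster, was high in 2 of these libraries, with 639 in UIRI d3 replicate 3 and 210.0 in WT_IRd7 replicate 5.

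Control replicate 5 was the highest Control library for Cyp2j5 (2086), Cyp2d12 (158), Gstz1 (387) and Cyp2s1 (14.9). In UIRI+Nx d7, replicate 4 was high for Cyp2e1 (123) and Cyp2d9 (55.7), replicate 6 for Gstz1 (224), replicate 1 for Ugt2b37 (48.0) and replicate 3 for Cyp2a5 (28.2). In UIRI d7, replicate 4 was high for Gstm2 (145). In UIRI d3, replicate 6 was high for Cyp1b1 (63.6) and replicate 2 for Cyp4f16 (16.2).

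In WT_IRNxd7, replicate 1 was high for Sult1d1 (397) and Ugt2b34 (29.3). In WT_IRd7, replicate 2 was high for Gstm5 (156) and replicate 6 for Cyp4f18 (14.4), and in WT_IRd3 replicate 6 was high for Gstt3 (83.2). Low libraries were WT_IRd7 replicate 5 for Cyp3a13 (0.534), WT_IRd7 replicate 6 for Ugt2b34 (3.18), Control replicate 4 for Sult5a1 (0.173) and WT_IRd3 replicate 3 for Gstm7 (2.79).

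The column of undetermined reads, which no label assigns to a group, held more than the highest Control library of the first cohort in 2 families. Cyp1 genes summed to 30.5 CPM there, against at most 22.5 CPM in Control, and Cyp3 genes to 1.45 CPM, against at most 0.776 CPM in Control, on unscaled CPM. This column was processed with the second cohort, on another build than Control, so the comparison of levels crosses the 2 ways of processing.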

How the results depend on the processing

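No member's called fold change reversed its sign under any alternative run, each of which used all or part of the same libraries. DESeq2 kept 182 of 183 member calls, its size factors in edgeR 181, a filter at 1 CPM all 183, no filter 170, 2-group fits 158 of 180, the library block as covariate 165 and the replicate block 176. With the replicate block, 15 of 16 calls of UIRI+Nx d7 over UIRI d7 and 15 of 17 of WT_IRNxd7 over WT_IRd7 were kept, the lost ones being Cyp2a5 (adjusted p = 0.056), Cyp2a4 (0.0711) and Sult5a1 (0.0728). Within single library blocks, with fewer libraries, the counts of called members were 30 and 27 for UIRI d3 over Control (1a and 2b, against 37), 26 for UIRI d7 over Control (block 1a, against 42), 27 and 9 for UIRI+Nx d7 over Control (1a and 2b, against 35), 0 for UIRI+Nx d7 over UIRI d7 (1a, against 16), 0 for UIRI d7 over UIRI d3 (1a, against 2), 14 and 5 for UIRI+Nx d7 over UIRI d3 (1a and 2b, against 11), 0 and 1 for WT_IRNxd7 over WT_IRd7 (2a and 2c, against 17), 1 for WT_IRd7 over WT_IRd3 (2a, against 3) and 13 for WT_IRNxd7 over WT_IRd3 (2a, against 20). For UIRI d7 over UIRI d3 the count was 0 with the 2 groups fitted alone, 1 with the library block as covariate and 1 with the replicate block. For WT_IRd7 over WT_IRd3 it was 2 with the library block as covariate, 8 with DESeq2, 5 with no filter, 5 with the 2 groups alone and 6 with the replicate block, and for these day 7 over day 3 counts the cause was not tested. Leaving out 1 library at a time, the counts ran over 36 to 37 (UIRI d3 over Control), 36 to 41 (UIRI d7 over Control), 31 to 37 (UIRI+Nx d7 over Control), 13 to 17 (UIRI+Nx d7 over UIRI d7), 0 to 1 (UIRI d7 over UIRI d3, lowest without UIRI d3 replicate 1), 7 to 12 (UIRI+Nx d7 over UIRI d3, lowest without UIRI+Nx d7 replicate 3 or 4 or UIRI d3 replicate 1), 10 to 20 (WT_IRNxd7 over WT_IRd7, lowest without WT_IRNxd7 replicate 2), 2 to 5 (WT_IRd7 over WT_IRd3) and 13 to 21 (WT_IRNxd7 over WT_IRd3, lowest without WT_IRNxd7 replicate 2). Of 2122 such refits of a called member, 230 lost the call. Calls kept in every such fit were 35 of 37, 33 of 42, 28 of 35, 12 of 16, 0 of 2, 7 of 11, 10 of 17, 2 of 3 and 12 of 20 in the same order. The interaction between cohorts gave 0 members in each such fit. Members near 1 CPM rest on few reads, and the second cohort's nephrectomy group has 4 libraries, which limits what can be called there.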

Other observations

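The undetermined reads gave unscaled sums of 1376 CPM for Cyp2, 1212 for Cyp4, 228 for alpha-class Gst, 466 for mu-class Gst, 515 for other Gst, 288 for Sult, 2.57 for Ugt1 and 163 for Ugt2 genes. They can hold reads of several libraries and entered no test.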
